A study of Glycine max with 4 samples.

Results

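Whole dry seeds of the soybean cultivar Williams 82 were compared with cotyledons of late-maturation embryos, to describe which transcripts were kept, gained or lost as the seed dried. The comparison took in the 26397 of 66210 gene models that reached 1 scaled CPM or more in either library. Scaled CPM gives the mapped reads of a gene model per 1000000 of a library total that was multiplied by its TMM (trimmed mean of M-values) factor. A gene model is called gained where it stood at least 4-fold higher in dry seed, lost where it stood at least 4-fold lower, and kept where both levels lay within 2-fold. Counts under 3 were raised to 3 for this purpose.

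The series holds 4 libraries, 1 for each stage, all of poly-A RNA from greenhouse plants. The late-maturation library (stage AA1) came from cotyledons freed of seed coat and axis, which were yellow and weighed 200 to 350 mg as a pair. The dry-seed library came from whole seeds of 100 to 250 mg. These are mostly cotyledon, and coat and axis add a very small part according to the submitters. The other libraries, from green mid-maturation cotyledons (stage B1, 150 to 250 mg as a pair) and from cotyledons of soil-grown seedlings 6 days after imbibition, are used here only to show where the same gene models stood earlier and later. The AA1 library held 38011608 counts and the dry-seed library 21512278, so 1 count was worth 0.025 scaled CPM for AA1 and 0.043 for dry seed. With 1 library on each side there is no replicate check and no p-value. Stage, tissue and library preparation cannot be told apart. Intervals are exact 95% intervals and cover counting error only.

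Cotyledons are the storage leaves of the soybean embryo and fill with protein and oil during mid-maturation. In late maturation reserve synthesis slows, chlorophyll is broken down, the embryo becomes tolerant of drying and the seed loses most of its water. Dry seeds of many plants hold messenger RNA made before drying, which is present when the seed takes up water. The seed coat is maternal tissue that surrounds the embryo, and the axis is the part that grows into root and shoot.

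The identifiers had 0 matches in the available table of gene names, and gene models therefore carry no product or role here. For the same reason no marker of cotyledon, coat or axis could be looked up, and the tissue labels were not checked against markers. In bulk RNA such as this, fewer cells of a type and less RNA per cell cannot be told apart.

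Most of the transcript pool of the late-maturation cotyledon was still present at a like relative level in dry seed. All levels and shares are relative to their library, so a change in the amount of RNA per seed would not be seen. The 14990 kept gene models made up 56.8% of those compared and held 66.5% of AA1 counts (66.44% to 66.47%) and 67.8% of dry-seed counts (67.75% to 67.79%). Gained gene models numbered 1574, or 5.96%, and lost ones 2575, or 9.75%. These shares are the background of the whole comparison, against which subsets are read below. A further 3585 stood 2- to 4-fold higher in dry seed and 3673 stood 2- to 4-fold lower. The median log2 ratio of dry seed over AA1 was -0.03. The 25th percentile lay at -0.94 and the 75th at 0.78 on the log2 scale.

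**Figure D1:**
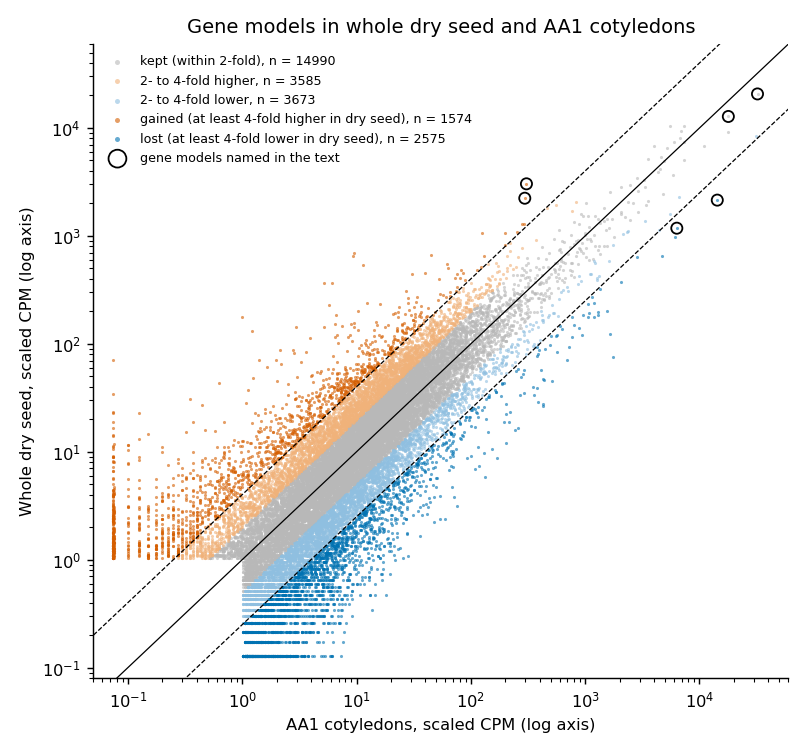
Scaled CPM in AA1 cotyledons (horizontal, log axis) and whole dry seed (vertical, log axis), 1 point for each of the 26397 gene models compared, with counts under 3 drawn at 3. The solid line marks equal levels and the dashed lines a 4-fold difference; the 1574 gained and 2575 lost gene models lie outside the dashed lines and the 6 named gene models are ringed.

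The most extreme differences lay on the gained side and the moderate ones on the lost side. At 8-fold, 638 gene models were higher in dry seed and 1041 lower. At 16-fold the order was the other way, with 325 higher and 230 lower. At 32-fold there were 117 higher and 14 lower, and at 64-fold 42 higher and 0 lower. The floor of 3 counts, 0.075 scaled CPM for AA1 and 0.13 for dry seed, leaves less room for a large fall than for a large rise. At 10 scaled CPM or more in AA1, where the floor leaves room for a 64-fold fall, stood 11251 compared gene models. The 414 lost gene models with at most 3 counts in dry seed all stood at 7.29 scaled CPM or less in AA1. The part of the floor in the difference between the gained and lost sides was not tested. Many gene models sat close to the limit of 4-fold. Of the gained, 252 lay between 4- and 4.5-fold, with 381 more between 3.5- and 4-fold just outside. Of the lost, 375 lay between 4- and 4.5-fold and 455 just outside.

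Few of the differences were switches from no detection to a high level. Of the gained gene models, 78 had 0 counts in AA1 and 235 had at most 3. The highest of these 235 reached 70.4 scaled CPM in dry seed, but their median was 1.63. Of the lost, 52 had 0 counts in dry seed and 414 had at most 3, with a median of 1.498 and a maximum of 7.29 scaled CPM in AA1. A count of 0 allows a level of up to 0.075 scaled CPM on the AA1 side and 0.13 on the dry-seed side. No gene model above 7.29 scaled CPM in AA1 was therefore down to 3 counts or fewer in dry seed. Lost abundant transcripts were reduced and still detected.

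The weight of the lost transcripts in the pool was carried by few gene models, and that of the gained ones was spread wider. The lost gene models held 10.2% of AA1 counts (10.22% to 10.24%) and 1.68% of dry-seed counts (1.675% to 1.686%). In AA1, 15 of the 2575 were enough to reach 50% of the class's counts, and 1510 (58.6%) stood under 5 scaled CPM. The gained held 1.05% of AA1 counts (1.048% to 1.054%) and 6.91% of dry-seed counts (6.898% to 6.919%). In dry seed, 76 of the 1574 made up 50% of the class, and 658 (41.8%) stood under 5 scaled CPM. The direction of these changes between AA1 and dry seed follows from how the classes were chosen.

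The amount of the pool that changed hands can be counted without any fold limit. Summed over all gene models whose share of counts was larger in dry seed, the difference came to 28.6 percentage points, and the same amount was given up by the others. On the side with larger shares in dry seed, 688 gene models were needed to reach 50% of this amount. On the side with smaller shares 55 sufficed. The 10 largest losses of share together took 8.56 points, or 29.9% of the amount, against 2.68 points for the 10 largest gains. Of the 28.6 points given up, 8.55 came from lost gene models, 9.70 from those 2- to 4-fold lower and 10.2 from kept ones. Of the points taken up, 5.86 went to gained gene models, 11.2 to those 2- to 4-fold higher and 11.5 to kept ones. Differences of less than 4-fold thus made up the larger part on both sides.

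The 6 gene models that follow show the scale of these differences, picked by a fixed rule as the 2 with the largest gain in scaled CPM among the gained, the 2 with the largest fall among the lost and the 2 most abundant among the kept. Their identifiers place them on chromosomes 8, 17, 3, 10, 9 and 15, in the order given here. The gained and lost ones were picked for the size of their difference, so their folds tend to be too large. The kept ones were picked for their level, within a class that ends at 2-fold. The intervals do not allow for these choices.

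Glyma08g22630 had the largest gain, from 18.2 scaled CPM at B1 and 307 at AA1 to 3038 in dry seed, and it stood at 3.13 in seedling cotyledons. Dry seed was the highest of the 4 libraries, and the gene model moved from the 290th to the 23rd place in abundance. It stood 9.91-fold higher in dry seed than in AA1 (9.72 to 10.1). Glyma17g08020 went from 320 scaled CPM at B1 and 296 at AA1 to 2235 in dry seed, and stood at 9.10 in seedlings. Its B1 and AA1 levels were alike with the TMM factors used, and this likeness was not checked under another scaling. Dry seed stood 7.54-fold above AA1 (7.39 to 7.69).

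Glyma03g32030 had the largest fall, from 72550 scaled CPM at B1 and 14310 at AA1 to 2146 in dry seed, with 15.3 left in seedlings. Its level was lower at each later stage, and AA1 stood 6.67-fold above dry seed (6.61 to 6.73). Glyma10g04280 followed the same order of stages, with 101100 scaled CPM at B1, 6335 at AA1, 1179 in dry seed, and 8.63 in seedlings. AA1 stood 5.37-fold above dry seed (5.31 to 5.44). Even so, both remained among the 100 most abundant gene models of dry seed, at the 32nd and 65th place.

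Glyma09g31740 was the most abundant gene model of AA1 and of dry seed, at 32170 scaled CPM in the former and 20670 in the latter, against 9898 at B1 and 188 in seedlings. AA1 stood 1.56-fold above dry seed (1.55 to 1.56), so its share of all counts was 3.39% in AA1 and 2.24% in dry seed. Glyma15g03030 had 17880 scaled CPM at AA1 and 12780 in dry seed, against 52230 at B1 and 34.2 in seedlings. It took the 3rd place in AA1 and the 2nd in dry seed, at 1.40-fold above dry seed in AA1 (1.39 to 1.41).

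The 100 most abundant gene models were followed from each library into the other. Abundance here means the count of reads, which is not corrected for gene length. Of the 100 most abundant gene models of AA1, 65 were kept, 18 lost and 17 were 2- to 4-fold lower, while 0 stood 2-fold or more higher. Over all compared gene models, 56.8% were kept and 9.75% lost. Their median place in dry seed was the 61st, and the lowest place was the 2083rd. Seen from dry seed, 74 of its 100 most abundant were kept, 8 were gained, 6 stood 2- to 4-fold higher, 9 stood 2- to 4-fold lower and 3 were lost. The list of each library favours falls or rises by its choice. Of the 1000 most abundant, AA1 and dry seed shared 627. The 373 that left this list had a median place of 1768 in dry seed, and the 373 that entered it had come from a median place of 1813.

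Lost gene models were found mostly at low levels, and the middle of the range leaned to dry seed. Of the 7265 gene models with a mean of 0.5 to 3 scaled CPM over both libraries, 21.4% were lost and 9.32% gained. Entry took 1 scaled CPM in either library, so gene models with a mean under 1 entered through 1 library alone. Those with a mean near 0.5 can only be gained or lost, which raises both shares in this bin. Between 3 and 10 scaled CPM, 8.57% were lost and 4.56% gained. From 10 to 30 the order turned, with 3.54% lost and 4.42% gained, and from 30 to 100 it was 2.11% and 5.14%. With the TMM factors used, the balance thus passed from lost to gained as levels went up to 100 scaled CPM. The shares by bin were not computed under another scaling. Between 100 and 1000 the shares were 5.56% lost and 5.65% gained. Among the 86 gene models above 1000, 6 were lost, 2 gained and 64 kept.

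**Figure D2:**
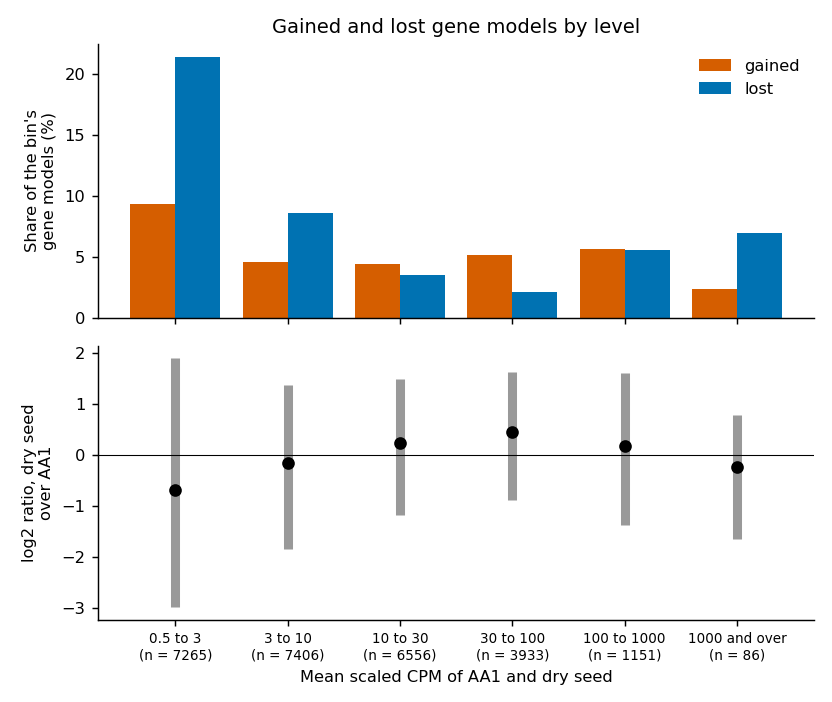
Upper panel, share of gained and lost gene models (percent of the bin) by mean scaled CPM of AA1 and dry seed; lower panel, median (point) and 10th to 90th percentile (bar) of the log2 ratio of dry seed over AA1 in each bin, 1 library per side. Lost gene models fall from 21.4% in the lowest bin to 2.11% between 30 and 100 scaled CPM, and the median ratio goes from -0.68 to 0.44 over the same bins. Gene models with a mean under 1 entered through 1 library alone, which raises the shares gained and lost in the lowest bin.

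The median log2 ratio followed the same course. It was -0.68 in the lowest bin, -0.17, 0.23 and 0.44 in the next ones, then 0.17 from 100 to 1000 and -0.25 above. The entry limit also shapes the spread of ratios in the lowest bin, and its part in that median was not tested. AA1 was sequenced more deeply than dry seed. With AA1 reads drawn down at random to the dry-seed total, the medians were -0.68, -0.17, 0.23, 0.43, 0.18 and -0.25, and the lowest bin held 21.7% lost and 9.30% gained. Another scaling moves all bins together, and with totals that leave out the 100 most abundant gene models of any library the bin from 100 to 1000 stood at -0.03. Calls at low levels rest on few counts. In the lowest bin, 573 of the 1555 lost gene models and 398 of the 677 gained ones had an interval wholly beyond 4-fold. Between 100 and 1000 scaled CPM it was 62 of 64 and 63 of 65.

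The B1 and seedling libraries were not used to choose the classes, apart from their part in the scaling factors, and show where the same transcripts stood at other stages. The median of the lost gene models was 0.47 scaled CPM in dry seed, against 4.17 at B1, 3.69 at AA1 and 5.48 in seedling cotyledons. These medians join members that went opposite ways between B1 and seedlings, which are separated below. All 2575 lost gene models reached 1 scaled CPM in AA1 and 815 did in dry seed, so the others entered through AA1 alone. They were chosen for a low dry-seed level, which favours dry seed below every other library. The median of the gained ones was 7.94 in dry seed, against 1.07 at B1, 0.92 at AA1 and 2.26 in seedlings. Of these 1574, 767 reached 1 scaled CPM in AA1, and the others entered through dry seed alone, which favours dry seed over every other library. Kept ones lay closer together, at 7.58, 10.01, 10.3 and 9.29 scaled CPM in the order of the stages.

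**Figure D3:**
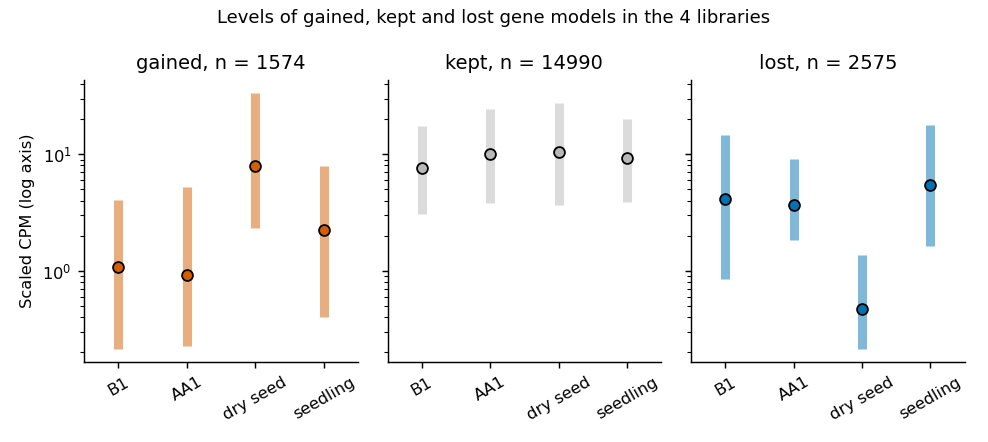
Median (point) and interquartile range (bar) of scaled CPM, on a log axis, of the gained, kept and lost gene models in each of the 4 libraries. Dry seed stands apart in the gained class (median 7.94) and in the lost class (median 0.47), a contrast with AA1 that the choice of the classes fixes. Choosing on a high or low dry-seed level favours such a contrast with B1 and seedlings too. The entry limit adds to this for the gained class.

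Detection in the other libraries differed between the classes. At 1 scaled CPM or more, 73.3% of the lost gene models were found in B1 and 81.7% in seedlings, against 85.6% and 89.2% of all gene models compared. Of the gained, 50.2% were found in B1 and 61.2% in seedlings. Hence 510 of the 1574 gained gene models (32.4%) stood under 1 scaled CPM in both B1 and seedlings. The same held for 194 of the 2575 lost ones (7.53%) and 532 of the 14990 kept ones (3.55%). Of all 26397 compared, 1605 stood so low, and the other 93.9% reached 1 scaled CPM in B1 or seedlings. All gained gene models had to reach 1 scaled CPM in dry seed, and many are low in AA1 by choice. A small set of 83 gained gene models had at most 3 counts in each of the 3 cotyledon libraries. Their median in dry seed was 1.55 scaled CPM, 3 of them passed 10, and together they held 0.026% of dry-seed counts (0.025% to 0.027%). The dry-seed library alone contained coat and axis, and the part of these tissues in the gained class was not tested.

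The lost class held both transcripts that were higher in the green filling cotyledon than in the seedling and transcripts with the reverse pattern. Among all 24792 compared gene models with 1 scaled CPM or more in B1 or seedlings, 10.2% stood at least 4-fold higher in B1 than in seedlings and 16.8% at least 4-fold higher in seedlings. Of the 2381 such lost gene models, 475 (19.9%) were higher in B1 and 761 (32%) higher in seedlings, both above the share of all. Of the 14458 kept ones, 1300 (8.99%) were higher in B1 and 1905 (13.2%) in seedlings. The same contrast was seen without low levels. At 10 scaled CPM or more in B1 or seedlings, 26.3% of lost gene models were higher in B1, against 13% of all. Higher in seedlings were 33%, against 19.7% of all. The ratios between B1 and seedlings rest on TMM factors of 0.58 for B1 and 1.51 for seedlings. They were not computed under another scaling, which would move the shares of every class.

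The gained class passed the share of all gene models on the seedling side. Of its 1064 gene models with 1 scaled CPM in B1 or seedlings, 312 (29.3%) were at least 4-fold higher in seedlings than in B1, against the 16.8% of all. In the other direction 85 (7.99%) were higher in B1, against 10.2% of all. At 10 scaled CPM or more the shares were 39.6% and 9.19% of 381 gene models. Of all 1574 gained gene models, 34% had at most 3 counts in B1 and 9.34% in seedlings. Over all compared gene models it was 7.13% and 1.48%. The part of the unequal depth of B1 and seedlings in these shares was not tested. The gained gene models higher in seedlings had a median of 0.53 scaled CPM at B1 and 1.15 at AA1, against 9.74 in dry seed and 9.15 in seedlings. They were chosen for dry seed above AA1 and for seedlings above B1, which sets which of these medians are high and low.

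**Figure D4:**
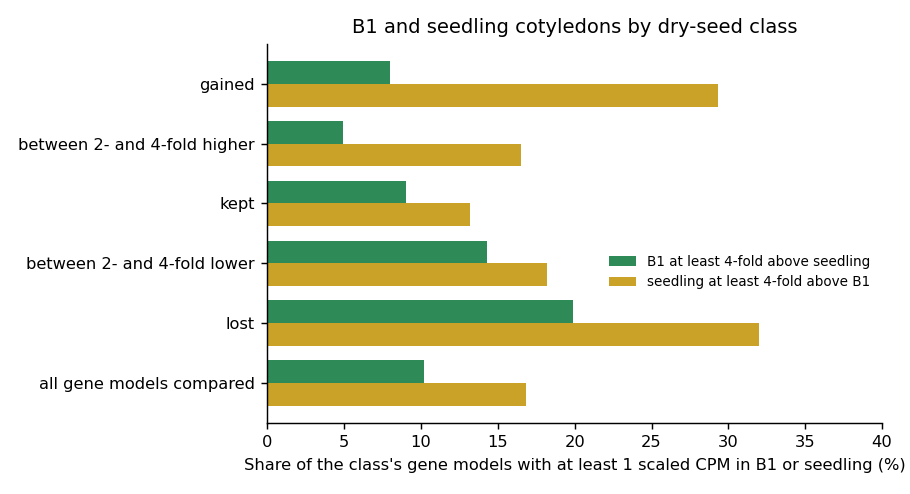
Share of the gene models of each class that stood at least 4-fold higher in B1 than in seedling cotyledons, or the reverse (horizontal axis, percent of those with 1 scaled CPM or more in B1 or seedlings; 1 library per stage). Lost gene models pass the share of all compared gene models in both directions (19.9% and 32% against 10.2% and 16.8%), and gained ones on the seedling side (29.3%) but not on the B1 side (7.99%).

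Split in this way, the lost class had very different weights in the pool. The 475 lost gene models higher in B1 took 43.9% of all counts at B1, 7.51% at AA1, 1.22% in dry seed and 0.44% in the seedling cotyledon. The 761 higher in seedlings took 0.23% at B1, 0.72% at AA1, 0.10% in dry seed and 9.15% in seedlings. Of these, the first set had medians of 25.6 scaled CPM at B1, 6.56 at AA1, 0.94 in dry seed and 1.15 in seedlings, and the second 0.75, 3.47, 0.43 and 15.1. Another set of 1145, alike in B1 and seedlings within 4-fold, held 1.47%, 1.93%, 0.35% and 3.43% in that order. The sets higher in B1 or in seedlings were chosen for that ratio and for AA1 above dry seed. This choice fixes the direction within each of these pairs of libraries. Among kept gene models, the 1300 higher in B1 held 18.07%, 31.23%, 27.63% and 2.46% in the same order. The 1905 kept ones higher in seedlings held 0.54%, 4.40%, 5.26% and 16.96%. By weight, most of what the lost class held in AA1, 7.51 of 10.2 percentage points, thus belonged to gene models higher in B1 than in seedlings. Of the 50 lost gene models most abundant in B1 and the 50 most abundant in seedlings, 7 were in common, against 3 for all compared gene models and 6 for the kept ones. The 10 lost gene models with most B1 reads held 37.0% of all B1 counts, 3.41% of AA1 and 0.54% of dry seed. In B1, 4 gene models were enough for 50% of the counts of the whole lost class. In seedlings 46 were needed.

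**Figure D5:**
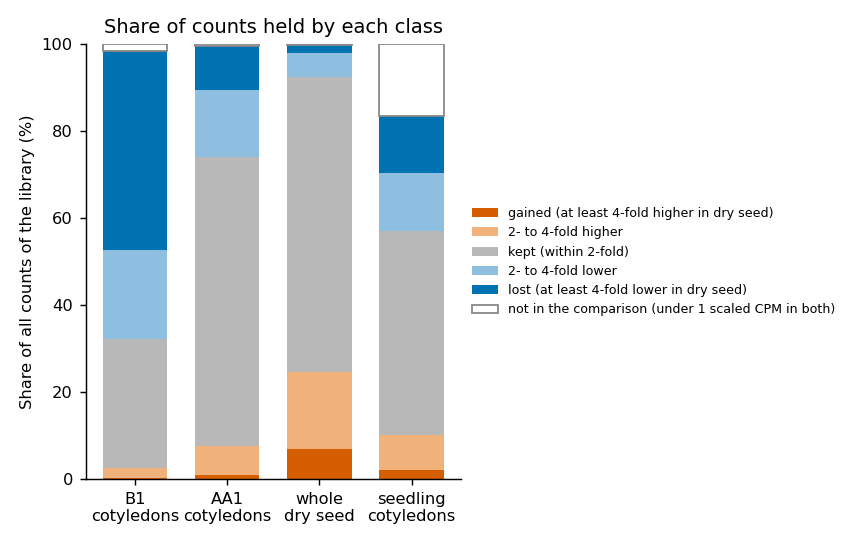
Share of all counts of each library (percent) held by gene models grouped by their ratio between dry seed and AA1, 1 library per bar. From left to right, the lost class takes 45.6%, 10.2%, 1.68% and 13.03%, and the kept class 29.8%, 66.5%, 67.8% and 46.9%.

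The gained class was spread more evenly over its subsets. The 667 gained gene models alike in B1 and seedlings within 4-fold held 3.67% of dry-seed counts, the 312 higher in seedlings 1.75% and the 85 higher in B1 1.16%. The 510 under 1 scaled CPM in both B1 and seedlings held 0.34%. In AA1 these subsets held 0.65%, 0.22%, 0.15% and 0.031% of counts. Their medians in dry seed were 22.0, 9.74, 10.4 and 2.34 scaled CPM.

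Along the chromosomes, gained and lost gene models were found on all 20. The chromosome number was read from the identifiers. The gained share ran from 4.11% on chromosome 13 to 6.96% on chromosome 14, with a median of 6.08%. The lost share ran from 8.38% on chromosome 20 to 11.5% on chromosome 3, with a median of 9.51%. Of the 73 compared gene models whose identifiers carry no chromosome number, 15 (20.5%) were gained and 6 (8.22%) lost.

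Gene models next to each other in identifier order were set against the background share, as a description without a test. Among the 26324 compared gene models with a chromosome number, 5.92% were gained and 9.76% lost. Of the 3009 gene models next to a gained one, 252 (8.37%) were gained themselves and 207 (6.88%) were lost. Of the 4832 next to a lost one, 718 (14.9%) were lost and 196 (4.06%) gained. By these counts, neighbours shared a direction above the background share and had opposite ones below it. Neighbours here are adjacent among the compared gene models, not always in the genome. Runs of 3 or more in a row counted 16 for gained gene models, each of 3, and 63 for lost ones, of which 13 had 4 or more. The longest was a run of 6 lost gene models on chromosome 12, with 32574 counts together in AA1 and 4239 in dry seed, and single levels of 1.35 to 764.5 scaled CPM in AA1. Nearby copies of a gene can share reads, depending on how reads with several matches were counted, and their part in these runs was not tested.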

How the data were processed

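Poly-A RNA was sequenced in 1 library per stage. Per the labels' protocols, RNA was selected for poly-A on oligo-dT beads, primed at random, amplified by PCR and read from a single end, with no strand mark and no molecular identifiers, so overlapping antisense genes cannot be separated. Per the file headers, the deposited values are raw counts of mapped reads per gene model. The submitters' processing notes name Bowtie. Its version, the genome build, the annotation and the handling of reads with several matches, which decides how near-identical copies were counted, are not stated there.

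Totals were multiplied by TMM factors (1.05 for AA1, 1.08 for dry seed) from edgeR 4.0.16 in R 4.3.3 over the 4 libraries. Intervals (binomial for ratios, Clopper-Pearson for shares) were computed with scipy 1.17.1. Limits, classes and the naming rule (largest difference in scaled CPM) were chosen with earlier results of these data known. A table of Glycine_max_v4.0 names (59048 genes) gave 0 matches, so planned lists by product name were not run. Levels are not corrected for gene length. The calling rule was tried on simulated counts with counting error only. Known folds were planted only in gene models with a mean of 5 scaled CPM or more. Variation between libraries and planted changes at lower levels were not simulated. Alternatives were 5 scalings (one by DESeq2 1.42.0), other entry limits, floors and folds, an interval rule and thinning. The limit of 10 scaled CPM in B1 or seedlings, and bin values under other scalings and depth, were added after the data were seen.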

Additional observations from a re-analysis of the deposited data

How the results depend on the processing

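With 1 library per side, all limits here concern counting and scaling, and variation between plants or preparations is unknown. Under plain totals, DESeq2 size factors, the upper quartile, TMM factors from the 2 libraries alone, a floor of 10 counts and thinning, the counts of gained, lost and kept gene models stayed within 1.5 times the values reported. With totals without the 100 most abundant gene models, 3932 were lost and the median log2 ratio was -0.289, and the bin from 100 to 1000 scaled CPM turned to -0.032. DESeq2 size factors gave a median of 0.082. A limit of more than 3 counts in place of 1 scaled CPM gave 2463 gained. Requiring 5 scaled CPM left 916 gained and 1065 lost with a median of 0.170, and requiring 10 left 714 gained, 596 lost and 8195 kept with a median of 0.287, since fewer gene models enter and low ones were more often lost. A pseudocount of 1 scaled CPM, which shrinks ratios of low levels, gave 718 gained and 712 lost. Where the interval had to lie wholly within 2-fold, 11056 were kept, or 41.9% of those compared. Where it had to pass 4-fold, 1048 were gained and 1240 lost. At 2-fold the counts were 5159 and 6248, and at 8-fold 638 and 1041. The gained share of all gained and lost gene models was 37.9% as reported, 28.4% with totals without the 100 most abundant gene models, and 36.9% to 43.5% with the other scalings. It was 54.5% at 10 scaled CPM and 50.2% with the pseudocount. Between AA1 and dry seed, the 6 named gene models kept their direction under all 5 other scalings. Scaled levels in B1 and seedlings, and the split of the classes between those libraries, were computed with the TMM factors only. No paired analysis was possible because each stage has 1 library.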
